A study of Mus musculus with 3 samples.

Results

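The CC chemokines are small secreted proteins with adjacent cysteines near their start, and 10 of them were examined in bone marrow-derived macrophages (BMDMs). The members were Ccl2, Ccl7, Ccl8, and Ccl12 (the monocyte chemoattractant proteins), Ccl3 and Ccl4 (the macrophage inflammatory proteins), Ccl5 (RANTES), the CCR4 ligands Ccl17 and Ccl22, and the eotaxin Ccl24. They were found by name among 34821 gene names on the array, of which 33597 were measured on all 3 arrays. BMDMs of C57BL/6J mice, grown from marrow of femurs and tibias with M-CSF from conditioned medium, were stimulated for 20 h. The conditions were CpG, IFN-γ + αIL-10R, and Triple, which combined all of these agents, with 1 array each. CpG is a DNA ligand of Toll-like receptor 9, IFN-γ is the main macrophage-activating interferon, and αIL-10R, called IL-10RB in the labels, is a blocking antibody against the IL-10 receptor. The mice's sex and age were not stated for the arrays, nor whether marrow was pooled. No array of unstimulated BMDMs and none of IFN-γ without the antibody were analysed here, so IFN-γ and αIL-10R cannot be told apart. With 1 array per condition, no difference below has a replicate check, and no p-value is given. The array measures RNA from all cells of a culture, so that fewer cells of a type and less RNA per cell cannot be told apart.

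Chemokines guide leukocytes through G protein-coupled receptors. Ccl2, Ccl7, and Ccl12 attract monocytes through CCR2, Ccl3 and Ccl4 attract macrophages and lymphocytes, and Ccl5 attracts T cells and monocytes. In macrophages many of these genes respond to NF-κB downstream of Toll-like receptors, and several also respond to signals from the IFN-γ receptor. Ccl17, Ccl22, and Ccl24 are known as products of macrophages exposed to IL-4.

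Each member was measured by 1 probe of 60 bases. The first 30 bases of each probe are shown for the 7 detected members, because the monocyte chemoattractant proteins are close relatives and the values below rest on the probes telling them apart. They are in lower case, and no base is marked.
Ccl2: tgtaggagtgaccagtgtgacagtgaacta
Ccl7: ttctgagaactgttgatgaaatgtgttgat
Ccl8: accagaagtctcaaattctgcagccttgaa
Ccl12: cctgaagttccccacgggcagtgtgatatt
Ccl3: catgaactgacaaatgtacaatagatgctt
Ccl4: tattatttatgttttagttataggacgcgt
Ccl5: tctcagctgctccgaggctctgcacagcaa
The 45 pairs of the 10 members' full probes were slid along each other without gaps. The closest pair matched at 26 bases, and the longest identical run in any pair was 9 bases. No probe was compared with the mRNA of another member, so whether a probe also binds a relative was not tested. In mm9 coordinates of the array design, the probe of Ccl2 lay at chr11:81850650-81850709, that of Ccl7 at chr11:81860656-81860715, that of Ccl12 at chr11:81916764-81916823, and that of Ccl8 at chr11:81930108-81930167. Farther along the same chromosome lay the probes of Ccl5 (chr11:83339296-83339355, minus strand), Ccl3 (chr11:83461358-83461417, minus strand), and Ccl4 (chr11:83478052-83478111). The design assigned them to the RefSeq mRNAs NM_011333 (Ccl2), NM_013654 (Ccl7), NM_011331 (Ccl12), NM_021443 (Ccl8), NM_013653 (Ccl5), NM_011337 (Ccl3), and NM_013652 (Ccl4). Ccl17 and Ccl22 had probes on chromosome 8, and Ccl24 on chromosome 5. The place of the probes within exons was not analysed here.

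The labels were checked against marker genes. On each array all 9 measured macrophage markers were well above background, with summed signals between 693392 and 815475. Of 8 neutrophil markers 3 reached that level on each array, and Ngp and Ltf on none. Of the dendritic cell markers 1 of 5 did, with Flt3 on none, of the T cell markers 3 of 6, of the B cell markers 2 of 5, and of the stromal markers 2 of 4. None of 5 mast cell and basophil markers and none of 4 erythroid markers was well above background on all arrays. The neutrophil markers did not share an order of arrays. In the order CpG, IFN-γ + αIL-10R, and Triple, Ly6g had signals of 555, 7699, and 2658, Elane of 2839, 1615, and 1539, S100a8 of 297, 55.7, and 517, Camp of 72.9, 17.5, and 139, and S100a9 of 58.0, 38.3, and 8.10. The dendritic cell markers did not either, with signals in the same order of 5.35, 1963, and 152 for Clec9a, 25.1, 36.3, and 133 for Zbtb46, 6.35, 6.80, and 60.7 for Xcr1, and 1945, 1246, and 1438 for Itgax. Ly6g and Clec9a were highest with IFN-γ + αIL-10R, S100a8, Camp, Zbtb46, and Xcr1 with Triple, and Elane, S100a9, and Itgax with CpG. The part of these cells in the chemokine values was not tested. Between 44.4% and 46.0% of the spots were well above background, no spot was saturated, and no spot of a member had an outlier mark. All 3 arrays were on 1 slide.

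Of the 10 CC chemokines, 7 were detected (well above background) on each array and 3 on none. In Triple, 6 members exceeded CpG by more than 2-fold, against 4.08% of all 33597 genes, or 5.99% of the 15894 genes that were well above background on each array (the detected genes). Against IFN-γ + αIL-10R, 5 members were more than 2-fold higher in Triple, with 3.53% of all and 5.13% of detected genes as background. These 5 were Ccl2, Ccl7, Ccl12, Ccl3, and Ccl4, and they were more than 2-fold above both other arrays, as were 2.06% of all genes and 2.54% of the detected ones. No member was more than 2-fold lower in Triple than in CpG (background 4.55% of all and 7% of detected genes), lower than in IFN-γ + αIL-10R (5% and 8.24%), or lower than in both (2.74% and 4.81%). Triple is common to these comparisons. The median difference of the 7 detected members on the log2 scale was 1.41 between Triple and CpG, where the median over the 15894 detected genes was -0.05. It was 1.29 between Triple and IFN-γ + αIL-10R, where the genes had a median of -0.04.

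**Figure D1:**
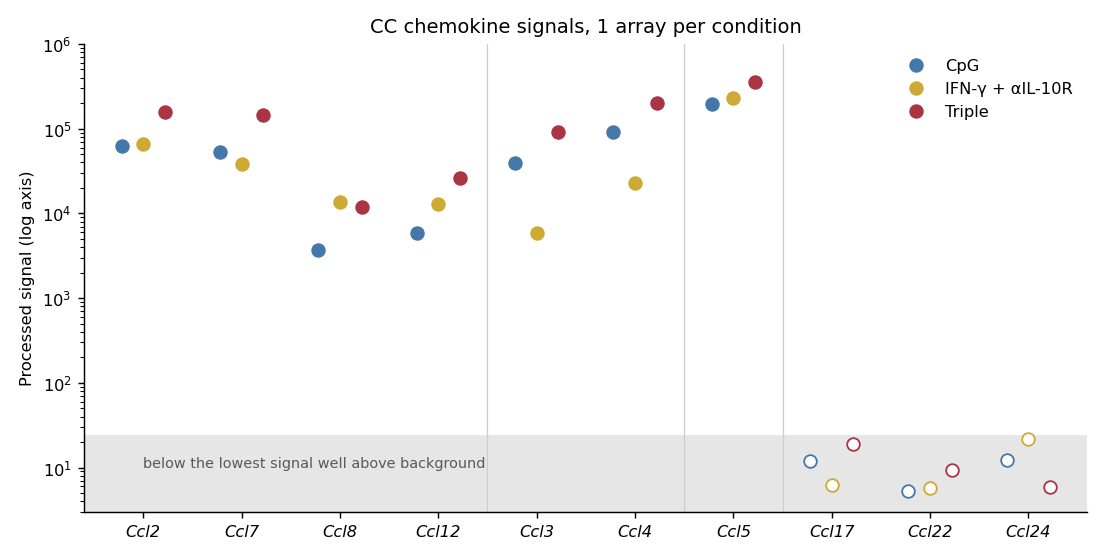
Processed signal (log axis) of the 10 CC chemokines on the CpG, IFN-γ + αIL-10R, and Triple arrays, 1 point per array, with filled points well above background and open points not. The red Triple points are the highest for Ccl2, Ccl7, Ccl12, Ccl3, Ccl4, and Ccl5, while Ccl17, Ccl22, and Ccl24 lie in the gray zone below 23.8, the lowest signal well above background on any array.

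The detected members differed in direction between the arrays that had no agent in common. Between CpG and IFN-γ + αIL-10R, 2 members were more than 2-fold higher in CpG (Ccl3 and Ccl4, background 2.75% of all and 3.74% of detected genes) and 2 were more than 2-fold lower (Ccl8 and Ccl12, background 3.18% and 4.84%). For each of the remaining 3 detected members, Ccl2, Ccl5, and Ccl7, the signals of these arrays were within 2-fold. The median of the 7 members was -0.12 on the log2 scale, near the median of the detected genes (-0.00), with members from -1.89 (Ccl8) to 2.71 (Ccl3).

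Error within an array was taken from probes that are printed several times. A difference between single spots had a technical SD of 0.148 on the log2 scale, pooled over 241 to 257 such probes per array. This covers spot noise only, and variation between cultures was not measured. Ccl2 was the member with replicate spots, 10 of 1 probe. In the order CpG, IFN-γ + αIL-10R, and Triple, its spots had SDs of 0.057, 0.041, and 0.059 on the log2 scale. These were below the pooled SDs of single spots, which were 0.113, 0.091, and 0.108. With CpG its spots ranged from 59258 to 66880 (median 62293), with IFN-γ + αIL-10R from 64189 to 68944 (median 66442), and with Triple from 146058 to 166841 (median 160101). The lowest Triple spot was above the highest spot of the other arrays, whereas the ranges of CpG and IFN-γ + αIL-10R overlapped. Compared at the same position on the array, the spot was brighter with IFN-γ + αIL-10R than with CpG at all 10 positions. These positions share 1 RNA sample per array, so a shift of a whole array or culture moves all 10 together. The count is therefore no replicate check.

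**Figure D2:**
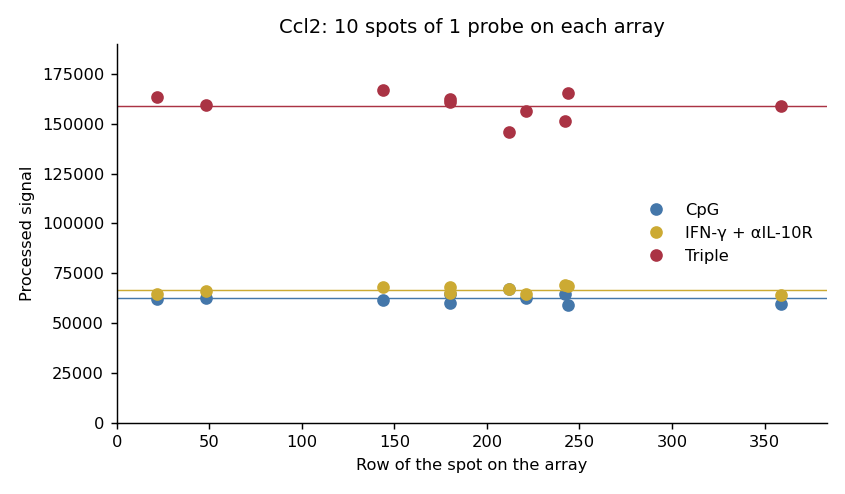
Processed signal of the 10 spots of the Ccl2 probe on each array against the row of the spot, between rows 22 and 359, with lines at the means. The spots are technical copies on 1 array, and those of Triple (146058 to 166841) lie above all others, while IFN-γ + αIL-10R lies above CpG at each of the 10 positions although their ranges overlap.

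Among the monocyte chemoattractant proteins, Ccl2, the main attractant of CCR2-bearing monocytes, had mean signals over its spots of 62356 ± 2466 in CpG, 66471 ± 1879 in IFN-γ + αIL-10R, and 159114 ± 6378 in Triple (SD over 10 spots of 1 array). The arrays of CpG and IFN-γ + αIL-10R were close to each other, and Triple stood above both. After scaling, Ccl2 was higher in Triple by 2.65-fold over CpG and 2.44-fold over IFN-γ + αIL-10R. CpG and IFN-γ + αIL-10R differed by -0.12 on the log2 scale.

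Ccl7, which attracts monocytes through CCR2 and other receptors, had signals of 52676 in CpG, 38581 in IFN-γ + αIL-10R, and 146766 in Triple. The order of arrays was Triple, CpG, and IFN-γ + αIL-10R. The scaled signal was higher in Triple by 2.90-fold over CpG and 3.89-fold over IFN-γ + αIL-10R. CpG was 1.34-fold above IFN-γ + αIL-10R, below the 2-fold threshold.

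Ccl12, a mouse CCR2 ligand, had signals of 5885 in CpG, 12930 in IFN-γ + αIL-10R, and 26430 in Triple. Here CpG was the lowest array and IFN-γ + αIL-10R the middle one. Triple was 4.67-fold above CpG, the largest difference of any member in that comparison. Its fold over IFN-γ + αIL-10R was 2.09, just past the threshold, and was under 2 with quantile normalization, with spike-in scaling, and relative to Actb. IFN-γ + αIL-10R was 2.24-fold above CpG.

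Ccl8, whose product acts on CCR8 in mice, had signals of 3709 in CpG, 13495 in IFN-γ + αIL-10R, and 11841 in Triple. It was low in CpG and at similar levels in the other arrays, so that Triple was not the highest array for this member. The scaled signal was 3.32-fold higher in Triple and 3.70-fold higher in IFN-γ + αIL-10R than in CpG. Triple and IFN-γ + αIL-10R differed by -0.16 on the log2 scale, about the SD of a difference between single spots.

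Ccl3 and Ccl4, the macrophage inflammatory proteins, had the largest differences between Triple and IFN-γ + αIL-10R. Ccl3 had signals of 38880 in CpG, 5829 in IFN-γ + αIL-10R, and 91428.5 in Triple. Ccl4 had signals of 92350 in CpG, 22636 in IFN-γ + αIL-10R, and 199287 in Triple. In both genes IFN-γ + αIL-10R was the lowest array, CpG the middle one, and Triple the highest. Between Triple and IFN-γ + αIL-10R, scaled Ccl3 differed 16.0-fold (4.00 on the log2 scale), which placed it at rank 44 from the highest among the 15894 detected genes, and Ccl4 differed by 3.17 on the log2 scale, at rank 91. CpG was 6.56-fold above IFN-γ + αIL-10R for Ccl3 and 4.01-fold for Ccl4. Triple was above CpG by smaller factors, 2.44-fold for Ccl3 and 2.24-fold for Ccl4.

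Ccl5, an attractant of T cells and monocytes, had signals of 195802 in CpG, 232933 in IFN-γ + αIL-10R, and 356642 in Triple. It had the same order of arrays as Ccl2, with smaller differences between Triple and the other arrays. Triple was 1.89-fold above CpG and 1.56-fold above IFN-γ + αIL-10R, so that Ccl5 was the detected member that did not pass 2-fold in either comparison. CpG and IFN-γ + αIL-10R were within 1.21-fold of each other. Ccl5 was the brightest member on each array, and in Triple it had rank 4 from the highest among all 33597 genes. None of its pixels was saturated, but whether signal stays proportional to RNA at that brightness was not tested.

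**Figure D3:**
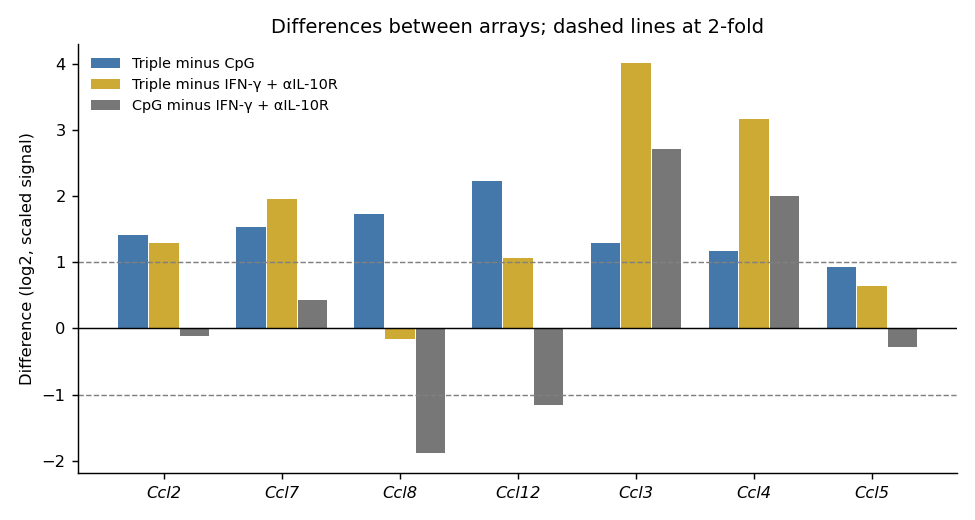
Differences of scaled signal (log2) for the 7 detected CC chemokines, as bars from 0, between Triple and CpG (blue), Triple and IFN-γ + αIL-10R (yellow), and CpG and IFN-γ + αIL-10R (gray), with dashed lines at 2-fold. All blue bars are positive (0.92 to 2.22), the yellow bars are tallest for Ccl3 (4.00) and Ccl4 (3.17), and the gray bars point down for Ccl8 (-1.89) and Ccl12 (-1.16) and up for Ccl3 (2.71) and Ccl4.

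Ccl17 and Ccl22, the ligands of CCR4, and Ccl24, a ligand of CCR3, were not well above background on any array. Ccl17 had signals of 12.0 in CpG, 6.24 in IFN-γ + αIL-10R, and 18.9 in Triple. Those of Ccl22 were 5.32, 5.82, and 9.38, and those of Ccl24 were 12.3, 21.7, and 5.98, in the same order. The lowest signals well above background were 23.8, 26.7, and 26.3, so that these genes have only an upper bound and no fold is given. Expression of these 3 genes was not detectable at this signal over background, and 4 of their 9 values were surrogates that the scanner software had set for dim spots.

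The shapes of the detected members over the 3 arrays were compared by the distance between their centred log2 values. The closest pairs were Ccl2 with Ccl5 (0.47), Ccl2 with Ccl7 (0.50), and Ccl3 with Ccl4 (0.64), and the farthest was Ccl8 with Ccl3 (3.59). Ccl12 and Ccl8, whose probes follow each other on the chromosome, had a distance of 0.87, and Ccl7 and Ccl8, which lie in the same cluster with Ccl12 between them, had one of 1.81. Among 10046 named genes well above background on each array, the nearest to Ccl2 were Atf3 (0.01) and Ppp1r15a (0.02), the nearest to Ccl7 were Fndc7 and Osgin2 (both 0.12), and the nearest to Ccl12 were St3gal5 (0.02) and Akap7 (0.03). The nearest to Ccl8 were Psmb10, a subunit of the immunoproteasome, and Phf11a, at 0.05 and 0.07. Vegfc (0.06) and Rtn2 (0.11) were nearest to Ccl3, Bcl2a1d (0.08) and Mllt6 (0.12) to Ccl4, and Apba1 (0.02) and Ahrr (0.03) to Ccl5. These distances rest on 3 values per gene and are a description only.

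The scaled signal in Triple was also set beside the sum of the scaled signals in CpG and IFN-γ + αIL-10R. Triple exceeded the sum for Ccl3 (2.12 times), Ccl4 (1.80 times), Ccl7 (1.66 times), Ccl12 (1.44 times), and Ccl2 (1.27 times). These are the members already called more than 2-fold above both other arrays, and any such gene must exceed the sum. That they exceed it is therefore no further result. It was below the sum for Ccl5 (0.857 times) and Ccl8 (0.706 times). Each array includes whatever level unstimulated BMDMs have, which was not measured, so that the sum holds that level more than once.

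**Figure D4:**
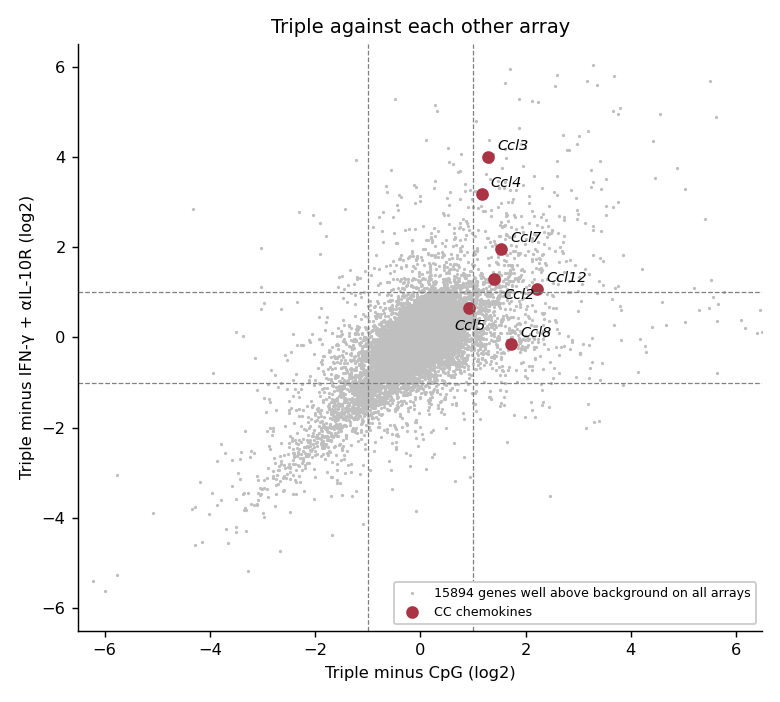
Difference between Triple and IFN-γ + αIL-10R against that between Triple and CpG (both log2, scaled signal) for the 15894 detected genes (gray, of which 15 lie beyond the axes) and the 7 detected CC chemokines (red), with dashed lines at 2-fold. Ccl2, Ccl7, Ccl12, Ccl3, and Ccl4 lie beyond 2-fold on both axes, Ccl8 beyond 2-fold on the horizontal axis alone, and Ccl5 within both lines, and both axes share the Triple array.

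Promoter sequences were matched in RefSeq (GRCm38.p6) for Ccl8, Ccl12, Ccl3, Ccl17, and Ccl22. The 200 bases before the start of Ccl8 (chr11:82114985-82115184, plus strand), Ccl12 (chr11:82101645-82101844, plus strand), and Ccl3 (chr11:83649379-83649578, minus strand) are shown, because the first pair was higher with IFN-γ + αIL-10R than with CpG while Ccl3 was lower. Capitals mark matches to the searched motifs.
Ccl8: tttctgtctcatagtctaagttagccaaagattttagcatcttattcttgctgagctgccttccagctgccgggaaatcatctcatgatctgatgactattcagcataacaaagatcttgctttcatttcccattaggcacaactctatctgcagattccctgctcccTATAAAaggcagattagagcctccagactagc
Ccl12: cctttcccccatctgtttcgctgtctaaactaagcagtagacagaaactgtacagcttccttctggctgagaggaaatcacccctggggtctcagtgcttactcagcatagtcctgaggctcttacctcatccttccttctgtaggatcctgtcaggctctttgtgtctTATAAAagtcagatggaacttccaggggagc
Ccl3: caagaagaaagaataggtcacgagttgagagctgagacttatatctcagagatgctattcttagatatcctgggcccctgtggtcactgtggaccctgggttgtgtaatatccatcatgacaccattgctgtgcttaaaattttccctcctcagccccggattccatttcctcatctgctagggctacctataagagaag
The motifs below were searched on both strands of the 250 bases before the start: the NF-κB consensus, an interferon response core of GAAA repeated after 2 bases of any kind, TTCNNNGAA (a palindromic cytokine response site), TGANTCA (the AP-1 site), and the TATA box motif TATAAA. This last motif was in Ccl8, from 32 bases before the start, and in Ccl12, from 31 bases before the start, and 12.4% of 32851 promoters of the same length held it. TTCNNNGAA was in Ccl17 (7.02% of all promoters), which was not detected here. The NF-κB consensus (3.90%), the interferon response core (2.98%), and TGANTCA (6.75%) had no match in the 5 promoters, which says only that these letters are not in this window. In a global alignment of the 200 bases, Ccl8 and Ccl12 were identical at 114 of 192 aligned positions (59.4%) and Ccl8 and Ccl3 at 98 of 183 (53.6%). For Ccl12 and Ccl3 it was 91 of 187 (48.7%), and for Ccl17 and Ccl22 98 of 189 (51.9%). Between 16 and 34 gap positions per pair are not in these shares. Unrelated promoters were not aligned, so the shares have no baseline and show no particular likeness of any pair.

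The remaining CC chemokines were read in the same way. Of 13 listed, 9 were measured on all arrays, 4 were well above background on all of them, and 3 on none. None exceeded 2-fold in Triple over either other array, and 1 was lower than in CpG by more than 2-fold. This was Ccl9, a CCR1 ligand whose probe lies between those of Ccl5 and Ccl3. Ccl9 had signals of 123791 in CpG, 42533 in IFN-γ + αIL-10R, and 47884 in Triple. It was highest in CpG, and Triple was 2.49-fold below CpG. Ccl6, the next gene, was not used because its spot had an outlier mark with IFN-γ + αIL-10R, and it had signals of 28709 in CpG, 31360 (marked) in IFN-γ + αIL-10R, and 6272 in Triple. The detected Ccl19, Ccl25, and Ccl27a were within 2-fold in all comparisons.

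Of 15 CC chemokine receptors and related genes listed, 14 were measured on all arrays. In Triple, 2 were more than 2-fold higher and 1 lower than in CpG, and 4 were higher than in IFN-γ + αIL-10R. Ccr3, the receptor of Ccl24 and one of those of Ccl5, had signals of 8120 in CpG, 1461 in IFN-γ + αIL-10R, and 3236 in Triple. It was highest in CpG, and Triple was 2.41-fold below CpG and 2.26-fold above IFN-γ + αIL-10R. Ccr7, the receptor of Ccl19 that guides cells to lymph nodes, had signals of 319, 225, and 2892 in the same order. Triple was 9.42-fold above CpG and 13.1-fold above IFN-γ + αIL-10R. Ccrl2, an atypical receptor, had signals of 176, 1116, and 3119, and was higher in Triple by 18.5-fold over CpG and 2.86-fold over IFN-γ + αIL-10R. Ccr9 was at least 2.29-fold higher in Triple (59.6) than in IFN-γ + αIL-10R (10.9, not well above background). Ccr2, the receptor of Ccl2, Ccl7, and Ccl12, was left out of the counts because its spot had an outlier mark with IFN-γ + αIL-10R, and its signals were 172 in CpG, 541 (marked) in IFN-γ + αIL-10R, and 79.1 in Triple. Ccr4, the receptor of Ccl17 and Ccl22, was not well above background on any array.

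**Figure D5:**
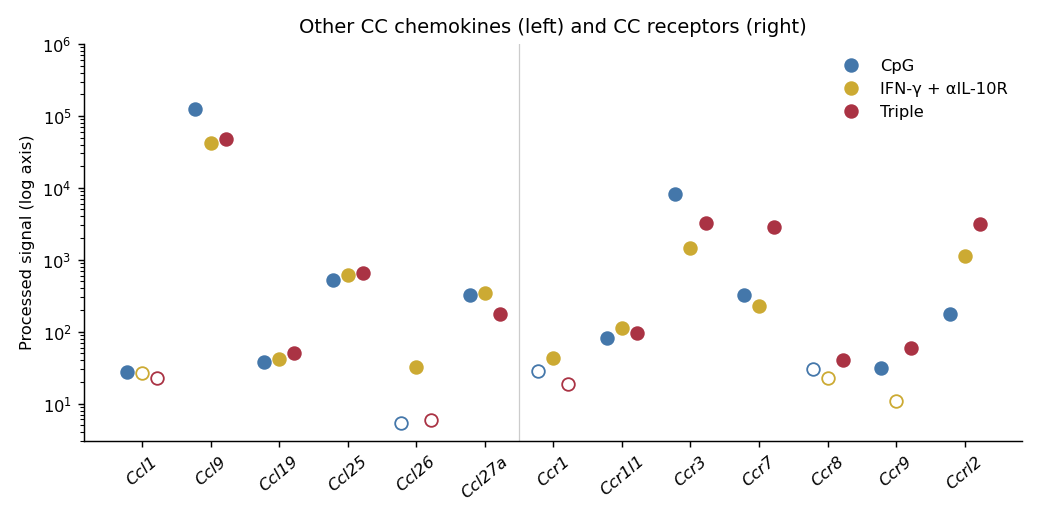
Processed signal (log axis) of the other CC chemokines (left of the line) and CC chemokine receptors (right) that were well above background on at least 1 array and measured on all, except for 1 receptor not reported here, 1 point per array, with open points not well above background. Ccl9 is highest in CpG, and Ccr7 and Ccrl2 are highest in Triple.

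Genes known to respond to the agents were read in the same arrays. Of 10 IFN-γ response genes, 9 exceeded 2-fold in Triple over CpG, and all 10 were lower in CpG than in IFN-γ + αIL-10R. Between Triple and IFN-γ + αIL-10R, 1 of these genes was more than 2-fold higher in Triple and 1 more than 2-fold lower. Of 10 TLR response genes, all were higher in Triple than in IFN-γ + αIL-10R, and 8 were higher in Triple than in CpG. In CpG, 7 of them were higher and 1 lower than in IFN-γ + αIL-10R. The largest differences between Triple and CpG in these lists were those of Cxcl9 (12.60 on the log2 scale), a CXC chemokine induced by IFN-γ, and Ptgs2 (7.73), the inducible cyclooxygenase. Ptgs2 was the TLR response gene that was lower in CpG than in IFN-γ + αIL-10R, by 3.67-fold. Il10, which encodes the cytokine whose receptor was blocked, had signals of 3117 in CpG, 1271 in IFN-γ + αIL-10R, and 9957 in Triple, with Triple 3.32-fold above CpG. Its order of arrays was that of Ccl7, Ccl3, and Ccl4. Of 10 IL-4 response genes, 2 were more than 2-fold higher and 3 lower in Triple than in CpG. Mrc1, the mannose receptor, had the largest difference of that list, -6.22 on the log2 scale. Of 13 NF-κB, STAT, and IRF genes listed, 12 were measured, and 6 were higher and none lower in Triple than in CpG.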

How the data were processed

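RNA of 3 BMDM cultures was hybridized in 1 colour to Agilent 8 × 60K arrays. The authors deposited Agilent Feature Extraction output (10.10.1.1), whose processed signal is a linear intensity after background subtraction and detrending, and a table of log2 values that differ from its logarithm by 1 constant per array. Control and outlier spots were left out, spots of a probe averaged (log2), and each array shifted by its 75th percentile over 21233 probes well above background on all arrays (on average 44.2% of probes were). A gene was its brightest probe. Dim signals were raised to the lowest signal well above background, so such folds are lower bounds. A gene was called if over 2-fold and well above background on the brighter array.

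Named are all members, part of the listed CC chemokines and receptors, Il10, and the 2 nearest genes per member by Euclidean distance of centred log2 values. Also named is the largest difference between Triple and CpG in the IFN-γ, TLR, and IL-4 response lists. The neutrophil and dendritic cell markers named were chosen after their values were seen. Members and lists were chosen with earlier results of these data known. The values of 1 listed receptor are not reported here. Code was tested on simulated data. Python 3.11.15, pandas 2.3.3, R 4.3.3, and limma 3.58.1 were used. Alternatives were normexp (offset 50), quantile, median, spike-in, 75th percentile over all probes, no scaling, the authors' log2 table, other filters, probe rules, and thresholds.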

Additional observations from a re-analysis of the deposited data

How the results depend on the processing

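No paired analysis was possible because there was 1 array for each condition. Over 13 alternatives to the values, the 21 differences of the 7 detected members moved by at most 0.134 on the log2 scale. Changing the filter for calls or the probe rule could not move them, since each had 1 RefSeq probe, well above background on all arrays. Most scalings shift a whole array by 1 constant, so these moves do not measure the noise of a single gene. Of the 15 differences past 2-fold, none changed sign, and 14 stayed past 2-fold throughout. The exception was Ccl12 between Triple and IFN-γ + αIL-10R (1.06), which was 1.00 with quantile normalization, 0.93 with spike-in scaling, and 0.97 relative to Actb. At a 3-fold threshold, 2 members were higher in Triple than in CpG, against 706 of all 33597 genes. In Triple, 3 were higher than in IFN-γ + αIL-10R, against 620 genes, and 0 higher than in both. In CpG, 1 was lower than in IFN-γ + αIL-10R, against 515 genes. How many of all genes were higher than in both was not counted at this threshold. With no filter and no lower limit, 1 member (Ccl24) was lower in Triple than in IFN-γ + αIL-10R, against 3088 of all 33597 genes. With Ccl17 added, 6 members were higher, against 2522 genes. Neither Ccl24 nor Ccl17 was well above background. The median of all genes between Triple and IFN-γ + αIL-10R moved by 0.11 with the authors' table and the percentile over all probes, and by -0.13 with spike-in scaling. Over all genes, 925 exceeded 2-fold in CpG over IFN-γ + αIL-10R, against 554 with normexp and 2369 with no filter and no lower limit. Signal over background and the single array per condition limit what the dim members can show.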
